A study of Mus musculus with 6 samples.

Results

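NRF2, encoded by Nfe2l2, is the transcription factor that switches on the cell's main defence against oxidants and electrophiles, and the 10 genes described here are the factor itself, the proteins that control its stability and the best known of its target enzymes. They were chosen by name, as Nfe2l2, Keap1, Sqstm1, Gclc, Gclm, Gsr, Txnrd1, Srxn1, Nqo1 and Hmox1, out of 35856 genes with a transcript in the deposited files. Earlier results of these data were known when they were chosen. Every one of the 10 had enough reads to be tested. All 10 were higher in the 3 libraries labelled Mdm2 deleted than in the 3 labelled vehicle, most of them by a modest amount: 8 rose by less than 1.5-fold, and Sqstm1 (1.52-fold) and Hmox1 (2.27-fold) rose by more. Of all 15933 genes tested, 27.7% had every deletion-labelled value above every vehicle-labelled one. At an edgeR adjusted p under 0.05, 25.0% rose, and 8.40% rose by 1.5-fold or more.

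The NRF2 protein is made continuously and is normally destroyed just as quickly. KEAP1 holds it in the cytoplasm and presents it to a CUL3 ubiquitin ligase, and oxidants or electrophiles that modify reactive cysteines of KEAP1 stop that transfer, so that NRF2 accumulates, pairs with a small MAF protein in the nucleus and binds antioxidant response elements in its target genes. The targets make and recycle glutathione and thioredoxin, reduce quinones and break down heme. Fibroblasts and many tumours use this programme to tolerate reactive oxygen species, and the amount of NRF2 is set mainly at the protein level, which RNA does not show.

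The 6 mouse libraries hold total RNA from cultured cells with floxed Mdm2 alleles and no p53, a background that every library shares. Labels name 3 sources, a T cell lymphoma and a sarcoma that arose in such mice and fibroblasts grown out of ear punches, each with 1 library labelled Mdm2 deleted, from cells given 4-hydroxytamoxifen (4-OHT), and 1 labelled vehicle, from cells given ethanol. The lymphoma was exposed for 6 h, and the other sources were exposed for 48 h. The malignant cells and the fibroblasts received a retrovirus carrying GFP either with CreERT2, a recombinase that 4-OHT activates, or alone, and the vector of each single library is not stated. Deletion and 4-OHT therefore cannot be told apart, and no label says whether the libraries of a source came from separate animals or cultures.

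The values go against some of these labels, so each group is called by its label only. Mdm2 itself, the gene labelled as deleted, stood at 30.5, 31.1 and 31.1 CPM (estimated counts scaled to a common library size) in the libraries labelled deleted and at 28.4, 28.0 and 28.5 CPM in those labelled vehicle (fibroblast, lymphoma and sarcoma in each case). Its log2 difference was 0.13 ± 0.05 (SE, edgeR adjusted p = 0.0539), which is no loss of Mdm2 RNA (without the replicate block it passed as a rise, adjusted p = 0.0349), although reads outside a deleted stretch would still be counted. Trp53 did not pass the test either (0.08 ± 0.07, edgeR adjusted p = 0.414). Its RNA stood at 24.3, 24.3 and 28.5 CPM with the deletion label and at 26.9, 22.3 and 24.1 CPM with the vehicle label. Trp53 RNA was thus detected in every library although the background is described as lacking p53, and RNA does not show whether protein was made. Markers of T cells were nearly absent everywhere, the library labelled lymphoma included: the 11 genes summed to 1.96 to 4.80 CPM, only Lck reached 1 CPM, and Cd3d, Cd3e and Cd247 were at 0 in all 6. The 8 fibroblast markers summed to 7462 to 7623 CPM in the libraries labelled deleted and 13139 to 13602 CPM in those labelled vehicle. This held whatever the labelled source. Most of these sums was Col1a1, Col1a2 and Col3a1. The log2 falls of single markers ran from 0.23 (Pdgfrb) to 1.33 (Col3a1), and Lum was too low to test. The 7 macrophage markers summed to 26.0 to 28.9 and 26.3 to 28.1 CPM. Within that last sum Cd14 was lower with the deletion label (18.0 to 20.1 against 21.7 to 22.9 CPM), Cd68 was higher (6.05 to 7.30 against 4.35 to 4.97 CPM), and Csf1r and Itgam were also higher, each at under 1 CPM. The other lists were low: the 6 skeletal muscle markers summed to under 1 CPM in every library, the 4 epithelial markers to 0.509 to 0.722 CPM (deleted) and 0.316 to 0.664 CPM (vehicle), and the 4 endothelial markers to 0.848 to 1.23 and 0.176 to 0.270 CPM. Over 9873 protein-coding genes, log2 values of 2 libraries with the same label of deletion or vehicle differed with an SD of 0.0966 to 0.139, and those of libraries with different labels with an SD of 0.510 to 0.523. Ribosomal RNA took 1.54% to 1.64% of the estimated counts in the libraries labelled deleted and 0.202% to 2.92% in those labelled vehicle. The marker shift moved with every result that follows, and its part in them was not tested; in bulk RNA, fewer cells of a type and less RNA per cell cannot be told apart.

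The RefSeq table of promoters (GRCm38.p6, 250 bases before to 50 after each start) held windows for 7 of the 10 genes. The core letters of the antioxidant response element, TGACNNNGC, were searched on both strands, and they were present in a window of Nfe2l2, Gclm, Txnrd1 and Srxn1. The stretches are shown because they are the places near a start where these letters stand in the genes described here. Each is written on the gene's own strand with the match in capitals. On the minus strand of chr2:75704871-75704913, the Nfe2l2 match begins 240 bases before the start. Gclm has it 134 bases before the start, within chr3:122245399-122245455 (plus strand). Txnrd1 has it 92 bases before the second of its 3 annotated starts, within chr10:82859090-82859146 (plus strand). Gclm and Txnrd1 carry the letters on the opposite strand, so the capitals show their reverse complement. The Srxn1 match GCTAGGTCA, also on the opposite strand, lies 28 bases after the start. Srxn1 further carries the AP-1-like form TGANTCAGC, a search added after the windows were read, 45 bases before its start within chr2:152105455-152105511 (plus strand), and that stretch is the last of those printed here.
Nfe2l2: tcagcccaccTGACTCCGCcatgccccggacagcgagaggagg
Gclm: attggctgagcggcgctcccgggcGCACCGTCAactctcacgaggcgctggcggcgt
Txnrd1: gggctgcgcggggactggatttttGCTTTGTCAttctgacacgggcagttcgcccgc
Srxn1: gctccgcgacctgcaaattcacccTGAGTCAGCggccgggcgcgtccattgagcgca

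A match is a description of letters and not a binding site. The first motif was in 4 of the 9 windows of these genes and in 4071 of all 32851 windows (12.4%), and the AP-1-like form in 1 of the 9 and in 390 of all (1.19%); a stretch can match both forms, and in Srxn1 the matches lie apart. The windows of Keap1, Sqstm1 and Nqo1 held neither, which says only that these letters are not within 250 bases before or 50 after those starts. Hmox1, Gclc and Gsr were not among the windows.

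Over all 6 libraries the deletion-labelled against the vehicle-labelled arm was tested with edgeR on the counts of each gene, with the labelled source as a block. Every one of the 10 genes rose at an adjusted p under 0.05, where 25.0% of the 15933 genes tested rose and 24.6% fell. Because the 10 were chosen with earlier results of these data known, the shares of all genes are background and not a test of the list. The 3 values labelled deleted lay above the 3 labelled vehicle for all 10, as they did for 27.7% of all genes, while for another 27.8% they lay below. At 1.5-fold or more, 2 of the 10 rose, against 8.40% of all genes. The median log2 fold change of the 10 was 0.32, beside 0.02 over all genes tested. With almost every second gene called in one direction or the other, called changes were common in the data as a whole. Nfe2l2, Gsr and Srxn1, whose rises were near the median of the 10, lay at the 81.4, 81.6 and 80.9 percentile of the log2 fold changes of all genes tested. The 10 genes shared one direction, with sizes from 0.15 (Keap1) to 1.18 (Hmox1) on the log2 scale.

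**Figure D1:**
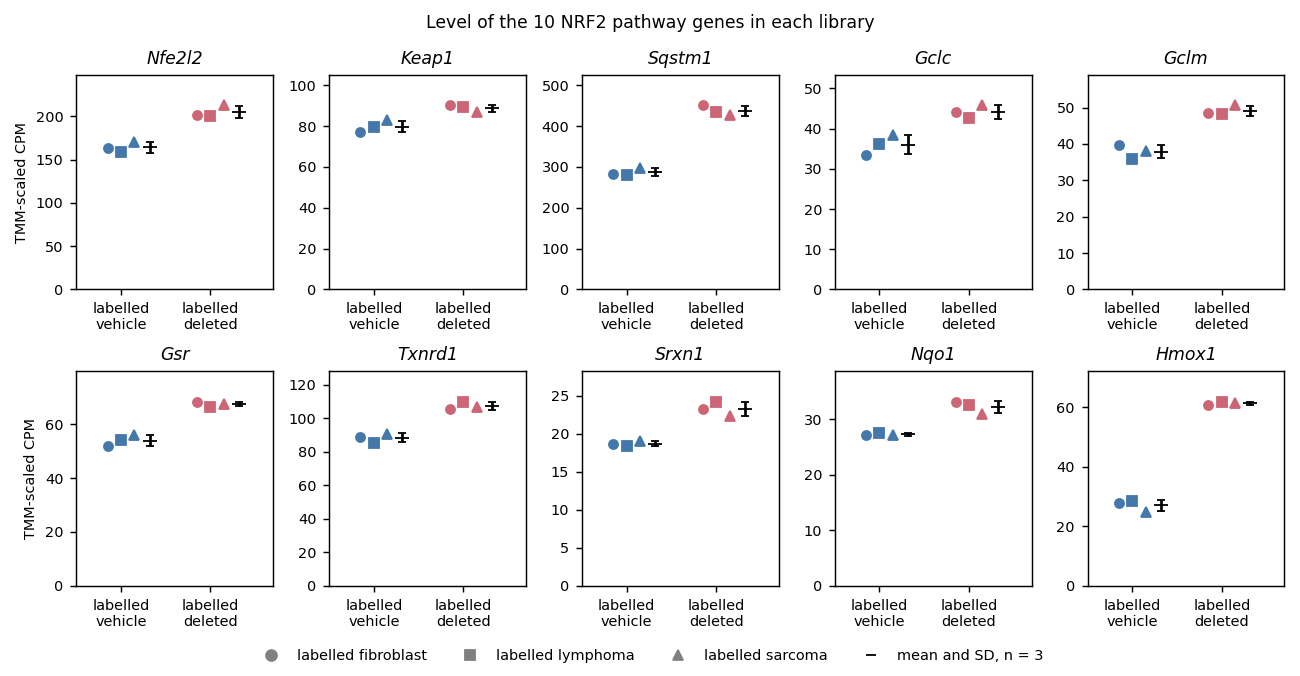
CPM (TMM-scaled estimated counts, linear axes from 0) of the 10 genes in each of the 6 libraries, by label of deletion or vehicle, with the mean and SD (n = 3) in black. The points labelled deleted lie above those labelled vehicle in every panel, and the gap relative to the level is widest for Hmox1 (61.3 against 27.0 CPM) and narrowest for Keap1 (88.7 against 79.8 CPM).

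Nfe2l2 (ENSMUSG00000015839.6, chromosome 2, 75675513 to 75704641, minus strand, GRCm38), the gene of the factor itself, stood at 164, 158 and 170.3 CPM in the vehicle-labelled fibroblast, lymphoma and sarcoma libraries and at 202, 200.1 and 213 CPM in the deletion-labelled ones. The lowest deletion-labelled value lay well above the highest vehicle-labelled one. The mean went from 164 ± 6.07 to 205 ± 6.84 CPM (SD, n = 3 each), a log2 fold change of 0.32 ± 0.04 (SE, edgeR adjusted p = 6.23e-05) or 1.25-fold. The rise was nearly the same size in the 3 labelled pairs, at 1.23 (95% counting interval 1.19 to 1.28), 1.26 (1.22 to 1.32) and 1.25 (1.20 to 1.29) times the vehicle value.

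Keap1 (ENSMUSG00000003308.15, chromosome 9, 21229730 to 21239361, minus strand), the inhibitor that delivers NRF2 for destruction, moved least of the 10. Its values labelled vehicle were 77.1, 79.3 and 82.8 CPM and those labelled deleted were 90.2, 89.2 and 86.8 CPM, so the groups did not overlap but came within a few CPM of each other. The log2 fold change was 0.15 ± 0.04 (SE, edgeR adjusted p = 0.0125), or 1.11-fold, from 79.8 ± 2.90 to 88.7 ± 1.71 CPM (SD, n = 3). In the sarcoma pair the ratio was 1.05 with a counting interval that reached below 1 (0.994 to 1.11), the only such case among the 30 ratios of 10 genes and 3 pairs; in the fibroblast and lymphoma pairs it was 1.17 (1.10 to 1.24) and 1.12 (1.06 to 1.19). The call did not hold without either of those pairs. Without the fibroblast pair the log2 fold change was 0.10 (edgeR adjusted p = 0.142), and without the lymphoma pair 0.15 (adjusted p = 0.0668); it was also lost with DESeq2 (adjusted p = 0.0753) and with limma on deposited TPM (adjusted p = 0.189). An antisense gene, Gm16754, shares 510 bases with the Keap1 coding sequence and stood at 19.7 to 23.3 CPM, and how its reads were separated is not known because the strand setting is not given in the sources used here.

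Sqstm1 (ENSMUSG00000015837.15, chromosome 11, 50199366 to 50210827, minus strand) encodes p62, an autophagy receptor that binds KEAP1 and carries it to the autophagosome, and the gene is itself a target of NRF2. Vehicle-labelled libraries held 282, 281 and 298 CPM and deletion-labelled ones 451, 435 and 426 CPM. The arms were far apart; the lowest deletion-labelled value was 426 CPM and the highest vehicle-labelled one 298 CPM. The log2 fold change of 0.61 ± 0.05 (SE, edgeR adjusted p = 6.88e-07) was the second largest of the 10, from 287 ± 9.74 to 437 ± 12.6 CPM (SD, n = 3). Pair ratios were 1.60 (1.56 to 1.65) for fibroblast, 1.55 (1.505 to 1.59) for lymphoma and 1.43 (1.39 to 1.47) for sarcoma, so the interval of the sarcoma pair lay below the other two. The gene's estimated counts were divided among its transcripts in much the same way in both arms: the transcript Sqstm1-202 took 61.6% to 62.6% in the vehicle-labelled libraries and 62.5% to 65.0% in the deletion-labelled ones.

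**Figure D2:**
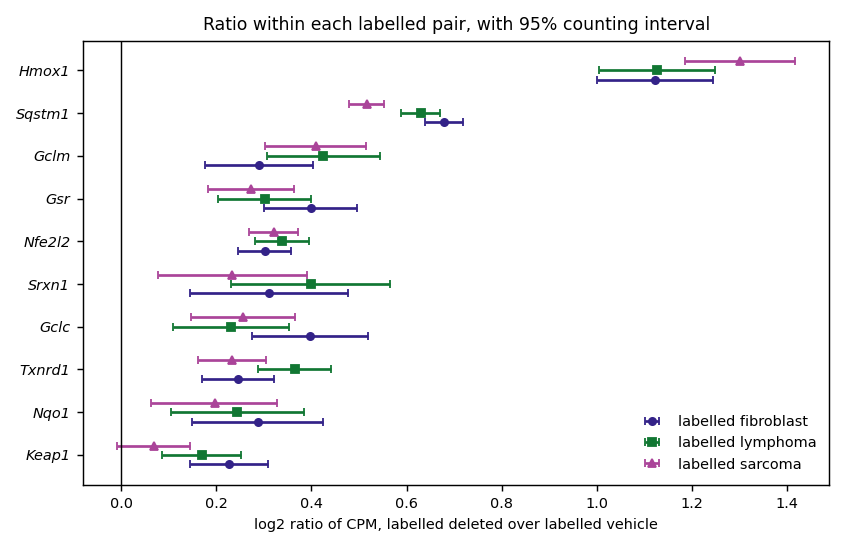
Ratio of CPM labelled deleted to CPM labelled vehicle within each labelled pair (log axis), with 95% Clopper-Pearson intervals that cover counting error only, for the 10 genes. All 30 ratios exceed 1, the Hmox1 ratios (2.18 to 2.47) stand apart from the rest, and only the interval of Keap1 in the sarcoma pair reaches below 1.

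Of the glutathione genes, Gclc and Gclm encode the catalytic and the modifier subunit of glutamate-cysteine ligase, which catalyses the rate-limiting step of glutathione synthesis. Gclc (ENSMUSG00000032350.9, chromosome 9, 77754535 to 77794485, plus strand) went from 33.5, 36.3 and 38.4 CPM to 44.1, 42.5 and 45.8 CPM. Gclm (ENSMUSG00000028124.15, chromosome 3, 122245557 to 122270732, plus strand) went from 39.6, 35.9 and 38.2 CPM to 48.4, 48.2 and 50.6 CPM. Neither subunit's groups overlapped. The log2 fold change was 0.29 ± 0.05 for Gclc (SE, edgeR adjusted p = 0.000448) and 0.37 ± 0.05 for Gclm (adjusted p = 4.84e-05). The subunits thus rose side by side, 1.23-fold and 1.30-fold, and the ratio of their levels per length, Gclc to Gclm in TPM, the deposited length-scaled level, was 0.314 to 0.378 in the vehicle-labelled and 0.326 to 0.337 in the deletion-labelled libraries. The smallest pair ratio of Gclc was 1.17 (1.08 to 1.28) in lymphoma, close to 1.19 (1.11 to 1.29) in sarcoma. That of Gclm was 1.22 (1.13 to 1.32) in fibroblast. The intervals of the pairs overlapped for both genes, so no order of the pairs is settled.

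Gsr (ENSMUSG00000031584.16, chromosome 8, 33652523 to 33698163, plus strand) encodes glutathione reductase, which uses NADPH to return oxidised glutathione to its reduced form. Its values were 51.9, 54.0 and 55.8 CPM with the vehicle label and 68.3, 66.5 and 67.5 CPM with the deletion label. The deletion-labelled values were tightly grouped (67.4 ± 0.904 CPM, SD, n = 3) and clear of the vehicle-labelled ones (53.9 ± 1.99 CPM). The log2 fold change was 0.32 ± 0.04 (SE, edgeR adjusted p = 7.73e-05), close in value to that of Nfe2l2.

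Txnrd1 (ENSMUSG00000020250.10, chromosome 10, 82833951 to 82897712, plus strand) encodes the cytosolic thioredoxin reductase, the selenoprotein that keeps thioredoxin reduced. It stood at 88.9, 85.5 and 90.9 CPM with the vehicle label and at 105, 110.0 and 107 CPM with the deletion label, again without overlap. Its log2 fold change was 0.28 ± 0.04 (SE, edgeR adjusted p = 0.000247), 1.21-fold. Srxn1 (ENSMUSG00000032802.8, chromosome 2, 152105516 to 152111376, plus strand) encodes sulfiredoxin, which repairs overoxidised peroxiredoxins. It was among the lowest of the 10 in counts, at 18.7, 18.4 and 19.0 CPM against 23.2, 24.2 and 22.3 CPM. The groups were separate, and the log2 fold change was 0.31 ± 0.06 (SE, edgeR adjusted p = 0.00108). Per length Srxn1 was no minor transcript, since its coding sequence is short: 26.8 ± 0.617 TPM in the vehicle-labelled libraries (SD, n = 3), next to 28.4 ± 0.989 TPM for Txnrd1.

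Nqo1 (ENSMUSG00000003849.8, chromosome 8, 107388225 to 107403206, minus strand) encodes the quinone reductase that is a standard reporter of NRF2 activity. Vehicle-labelled values were 27.2, 27.5 and 27.1 CPM and deletion-labelled ones 33.1, 32.5 and 31.0 CPM. The vehicle-labelled libraries agreed closely (SD 0.217 CPM), and the groups did not overlap. Nqo1 rose by 0.24 ± 0.05 on the log2 scale (SE, edgeR adjusted p = 0.00208), or 1.18-fold, the second smallest change of the 10. Its pair ratios were 1.22 (1.11 to 1.34), 1.18 (1.08 to 1.31) and 1.15 (1.04 to 1.26). Nqo1 and Txnrd1 lost their calls when deposited TPM was tested with limma (adjusted p = 0.0715 and 0.0590).

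Hmox1 (ENSMUSG00000005413.8, chromosome 8, 75093621 to 75100589, plus strand) encodes heme oxygenase 1, the inducible enzyme that opens the heme ring and releases iron, biliverdin and carbon monoxide. Besides NRF2, the repressor BACH1 and other stress pathways are known to act on it. Its CPM was 27.9, 28.3 and 24.9 in the vehicle-labelled fibroblast, lymphoma and sarcoma libraries and 60.8, 61.8 and 61.3 in the deletion-labelled ones. The arms were further apart, relative to their level, than for any other of the 10, and the 3 deletion-labelled values lay close together (61.3 ± 0.531 CPM against 27.0 ± 1.90 CPM, SD, n = 3). The log2 fold change was 1.18 ± 0.05 (SE, edgeR adjusted p = 4.63e-09), which is 2.27-fold and lies at the 96.2 percentile of all genes tested, where Sqstm1 lies at 91.3 and Keap1 at 66.9. Hmox1 was the only one of the 10 at 2-fold or more within the labelled pairs, at 2.18 (2.001 to 2.37), 2.18 (2.01 to 2.38) and 2.47 (2.27 to 2.67), and it reached this in all 3. Of all genes averaging 5 CPM or more, 2.77%, 2.79% and 2.82% were at least 2-fold higher in the fibroblast, lymphoma and sarcoma pair.

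**Figure D3:**
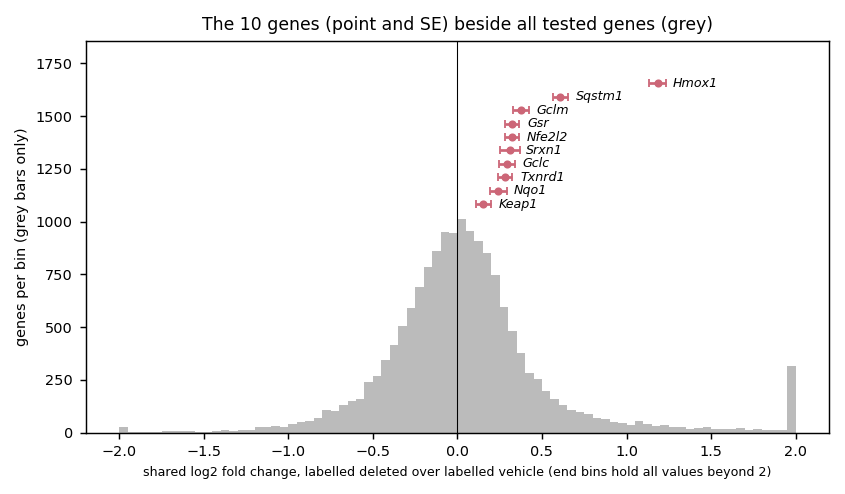
Log2 fold change of the 10 genes, labelled deleted minus labelled vehicle with SE, beside the distribution over all 15933 genes tested (grey bars, genes per bin, end bins holding all values beyond 2). The 10 genes lie to the right of the median of all genes (0.02), 8 of them between 0.15 and 0.37, with Sqstm1 at 0.61 and Hmox1 at 1.18.

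Whether the size of the rise differed between the 6 h label and the 48 h labels was tested as an interaction. None of the 10 genes was called (edgeR adjusted p = 1 for each, and 0 of 10 at an unadjusted p under 0.05), where 10 of 15933 genes were called (0.0628%) and 494 had an unadjusted p under 0.05. The differences, 6 h minus 48 h, lay between -0.09 and 0.13 on the log2 scale, and their 95% intervals together spanned -0.35 to 0.44. For Keap1, Gclc, Txnrd1, Srxn1 and Nqo1 the interval held a difference as large as the gene's own rise, and for Nfe2l2, Gsr, Gclm, Sqstm1 and Hmox1 it did not. The lymphoma label alone carries the 6 h exposure, so exposure and source cannot be told apart. Within the pairs, the median log2 ratio of the 10 was 0.30 (fibroblast), 0.35 (lymphoma) and 0.26 (sarcoma).

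The levels of the 10 genes can be compared with each other only per length, in TPM. In the vehicle-labelled libraries Sqstm1 was highest at 113 ± 3.79 TPM (SD, n = 3), followed by Nfe2l2 at 43.2 ± 1.69, Txnrd1 at 28.4 ± 0.989, Srxn1 at 26.8 ± 0.617, Gclm at 24.9 ± 1.45 and Keap1 at 20.0 ± 0.656 TPM. The lower end held Nqo1 at 17.8 ± 0.141, Gsr at 17.3 ± 0.559, Hmox1 at 16.5 ± 1.18 and Gclc at 8.83 ± 0.561 TPM. Neighbours whose libraries overlapped in level were Srxn1 and Gclm, Nqo1 and Gsr, and Gsr and Hmox1. In the deletion-labelled libraries Sqstm1 (175 ± 10.8 TPM) and Nfe2l2 (55.1 ± 2.58 TPM) kept their places and Gclc stayed lowest (11.1 ± 0.367 TPM). Hmox1 moved furthest, from the ninth to the third place at 38.2 ± 2.56 TPM, where its libraries overlapped those of Txnrd1 (35.3 ± 2.88 TPM). Nqo1 (21.5 ± 1.60 TPM) came to lie below Gsr (22.1 ± 1.05 TPM), with overlapping libraries. RNA of the factor exceeded that of its inhibitor throughout, with Nfe2l2 at 2.09 to 2.23 times Keap1 in vehicle-labelled and 2.35 to 2.57 times in deletion-labelled libraries, and Sqstm1 at 5.53 to 5.72 and 7.61 to 7.82 times Keap1. These are RNA ratios and not ratios of the proteins.

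**Figure D4:**
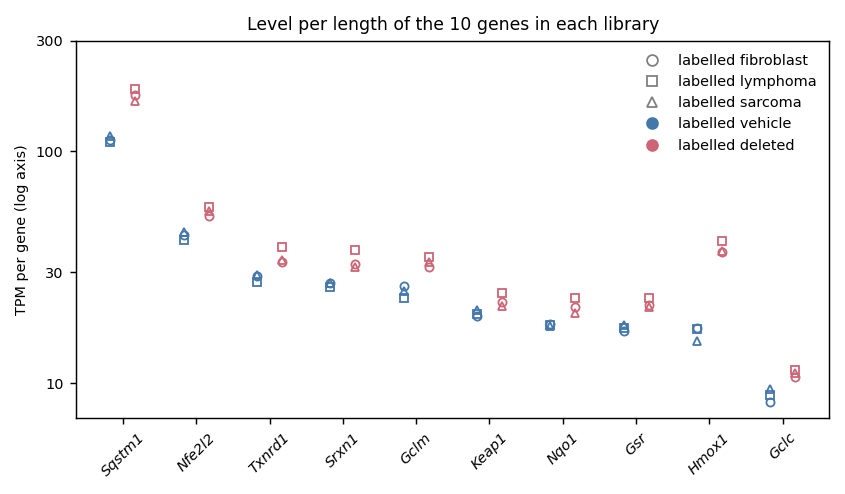
Deposited TPM summed per gene (log axis) of the 10 genes in each of the 6 libraries, ordered by the mean of the vehicle-labelled libraries. Sqstm1 is highest and Gclc lowest with both labels, and Hmox1 rises from 16.5 to 38.2 TPM past several of its neighbours.

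By the root mean square difference of centred log2 CPM over the 6 libraries, the pattern most like that of Hmox1 among 9873 protein-coding genes belonged to Fam126a (0.0465), Ccdc25 (0.0481) and Ripk2 (0.0558). For Nqo1 the nearest were Mta2 (0.0134), Gapvd1 (0.0140) and Rheb (0.0171), and for Nfe2l2 they were Bak1 (0.0115), Prpf38a (0.0164) and Psmc5 (0.0185). The distances are larger around Hmox1, whose change is larger.

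Other genes of the pathway did not share one direction. They too were listed with earlier results of these data known. Of 80 further genes listed by role, 76 could be tested, and 21 rose (27.6%), 32 fell (42.1%) and 23 did not pass the test, where 25.0% of all genes rose and 24.6% fell. With limma on log2(TPM + 1) of the deposited TPM, 11 of them rose and 10 fell. In that setting 2352 of all 15933 genes rose and 1552 fell, so these counts cannot be read against the edgeR shares. Their median log2 fold change was -0.07, beside 0.02 over all genes. In the partners and regulators of NRF2, 5 of 9 rose (55.6%, against 25.0% of all genes) and 1 fell (11.1%, against 24.6%). Mafk, a small MAF partner, rose from 5.12 ± 0.417 to 12.2 ± 0.411 CPM (log2 fold change 1.25 ± 0.08, edgeR adjusted p = 3.04e-07). Nfe2l3, a relative of Nfe2l2, rose by 2.68 ± 0.46, but its mean was only 0.0720 and 0.479 CPM. Nfe2l1 and Cul3 also rose (0.35 and 0.26), Rbx1, the RING subunit of the CUL3 ligase, fell by 0.16, and Bach1, the repressor of Hmox1, gave 0.08 ± 0.05 (adjusted p = 0.152). With limma on log2(TPM + 1), Nfe2l3, Cul3 and Rbx1 lost their calls (adjusted p = 0.0908, 0.0613 and 0.331).

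In the wider glutathione list 5 of 18 rose (27.8%) and 6 fell (33.3%), near the 25.0% and 24.6% of all genes. Slc7a11, the cystine carrier that supplies glutathione synthesis and a target of ATF4 as well as NRF2, rose from 23.9, 21.3 and 22.9 to 83.6, 88.1 and 82.8 CPM, a log2 fold change of 1.90 ± 0.05 (edgeR adjusted p = 8.53e-11). That is a larger change than any of the 10 showed. The export pump Abcc4 rose by 0.91 ± 0.05, while the glutathione transferases Gsta4 and Gstm1 fell by 0.58 and 0.56; Gstm1 belongs to a family of similar genes whose reads may be divided between copies. The transferases did not move as a block, since the microsomal transferase Mgst1 rose by 0.37 where Gsta4 and Gstm1 fell. Most of those called fell, however: Mgst2, also microsomal, fell by 0.34 and Gstm2 by 0.50. Gstp1, Gstt1 and Gsto1 did not pass the test. Gss, glutathione synthetase, gave 0.13 ± 0.08 (edgeR adjusted p = 0.189). That estimate has the same sign as those of Gclc and Gclm but did not pass the test. Whether Gss rose with them is therefore not settled.

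Around thioredoxin, 2 of 13 genes rose (15.4%, against 25.0% of all genes) and 8 fell (61.5%, against 24.6%). Txnrd2 and Txnrd3, the relatives of Txnrd1, fell by 0.49 and 0.33 where Txnrd1 rose by 0.28. Prdx2, Prdx3, Prdx4 and Prdx5, peroxidases that thioredoxin supplies with electrons, fell by 0.22, 0.23, 0.43 and 0.13, and the thioredoxin inhibitor Txnip fell by 0.46. The genes that rose were Prdx6 (0.14) and thioredoxin itself, Txn1 (0.12). Without the fibroblast pair their log2 fold changes were 0.09 (Prdx6, edgeR adjusted p = 0.164) and 0.07 (Txn1, adjusted p = 0.331). Without the lymphoma pair the sizes stayed near 0.14 and 0.11 but the calls were lost (adjusted p = 0.0644 and 0.192). Prdx5 likewise lost its call at a similar size without the lymphoma pair (-0.12, adjusted p = 0.142) and without the sarcoma pair (-0.10, adjusted p = 0.109). Of the 6 peroxiredoxin genes, then, 4 fell, Prdx6 rose, and Prdx1, the most abundant at 390.1 and 387 CPM, gave -0.01 ± 0.04 (adjusted p = 0.862). With limma on deposited TPM, Txnrd3, Prdx2, Prdx3, Prdx5, Prdx6 and Txn1 lost their calls.

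Of the heme and iron genes 2 of 7 rose (28.6%, near the 25.0% of all genes) and 4 fell (57.1%, against 24.6%). Hmox2, the constitutive heme oxygenase, fell from 38.4 ± 0.719 to 30.2 ± 1.12 CPM (log2 fold change -0.35 ± 0.05, edgeR adjusted p = 0.000156), opposite to Hmox1. The biliverdin reductases Blvra and Blvrb, which act on the product of heme oxygenase, fell by 0.20 and 0.32, and Fech, which makes heme, fell by 0.39. Blvra lost its call without the sarcoma pair (edgeR adjusted p = 0.156) and with DESeq2 (adjusted p = 0.156). With limma on log2(TPM + 1), Hmox2, Blvra and Blvrb lost their calls (adjusted p = 0.0803, 0.280 and 0.0597), and Fech kept its call (adjusted p = 0.0315). Fth1, the ferritin heavy chain and a known NRF2 target, rose from 936 ± 63.8 to 1365 ± 24.2 CPM (0.55 ± 0.05, adjusted p = 2.29e-06), although reads of its processed copies may be shared with it. Tfrc, the transferrin receptor that brings iron into the cell, rose by 0.53. The proteins ferritin and transferrin receptor are classically controlled in opposite directions by iron. Here the RNA of both was higher, which does not show the level of either protein.

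**Figure D5:**
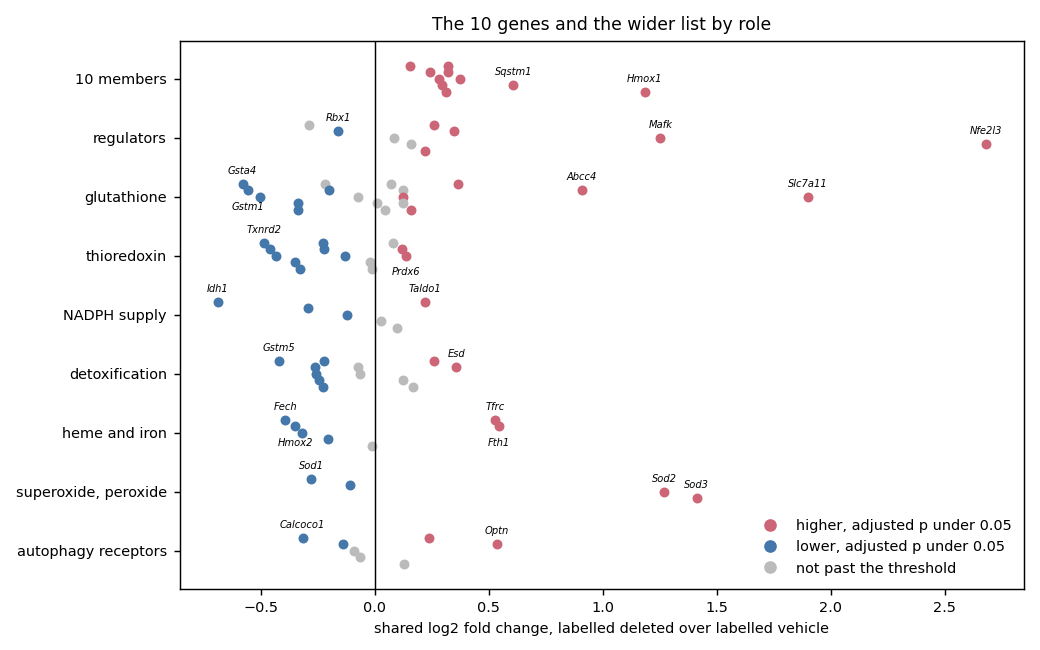
Log2 fold change, labelled deleted minus labelled vehicle, of the 76 tested genes of the wider pathway list and the 10 genes described here, by role (1 row each, the 10 on top), red where higher and blue where lower at an adjusted p under 0.05 and grey otherwise. The 10 lie right of 0, whereas the wider genes lie on both sides, from Idh1 at -0.69 (0.13 on deposited TPM) to Nfe2l3 at 2.68.

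The counts of the remaining roles are small and stand against 25.0% risen and 24.6% fallen over all genes. Of the enzymes that make NADPH, 1 of 6 rose (Taldo1, 0.22) and 3 fell, with Idh1 at -0.69 (87.4 to 54.3 CPM). Taldo1 lost its call with limma on log2(TPM + 1) (adjusted p = 0.0890). Idh1 turned direction on deposited TPM, where limma gave 0.13 on the log2(TPM + 1) scale (adjusted p = 0.289), so its direction is not settled. Of the detoxifying enzymes, 2 of 12 rose and 6 fell, with Esd at 0.36 and Gstm5 at -0.42. Of the genes against superoxide and peroxide, 2 of 4 rose and 2 fell. Sod2, the mitochondrial superoxide dismutase and a well-known target of NF-kB, rose from 52.4 ± 3.22 to 126 ± 0.278 CPM (1.27 ± 0.05, edgeR adjusted p = 1.01e-09), Sod3 rose 2.66-fold at a low level, from 1.30 to 3.46 CPM, and Sod1 fell by 0.28. Catalase, Cat, fell by 0.11, a call lost in 8 alternative settings. Among these was the leaving out of any 1 of the 3 pairs (edgeR adjusted p = 0.0793 to 0.0897). Among autophagy receptors and their partners, the companions of Sqstm1, 2 of 7 rose and 2 fell (28.6% each, near the shares of all genes), with Optn at 0.54 and Calcoco1 at -0.32. The calls of Sod1 and Calcoco1 were each lost in 2 alternative settings.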

How the data were processed

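The deposited files give, per transcript, estimated counts and TPM, both made by the authors. The submitters' processing notes name kallisto 0.43.0 and the build GRCm38, and strandedness and the exact set of transcripts are not given in the sources used here. Of 76055 targets, 75049 were joined to genes of GENCODE M21, and the remaining 1006 (0.393% to 0.410% of estimated counts) were left out. Of 51165 coding targets, 94.2% had the length of the coding sequence, so reads outside it were not counted there. Kallisto divides reads between similar sequences by likelihood: the 4 Keap1 targets with identical coding sequence each received 25.0%. Estimated counts were summed per gene and rounded. Libraries held 26243064 to 37517726 estimated counts, and the 10 genes 532 to 13296 each.

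The main test was edgeR 4.0.16 (quasi-likelihood, two-sided, TMM, filterByExpr, Benjamini-Hochberg over 15933 genes) in R 4.3.3, with the labelled source as a block, 2 residual and 9.23 prior degrees of freedom. CPM is TMM-scaled. The pairing comes from the source label; within pairs, library deviations from the mean of their arm had correlations of 0.0324, 0.139 and 0.141. The 3 labelled sources served as replicates, and p-values measure only the spread between these libraries, which may be technical. The interaction with exposure left 1 residual degree of freedom. Pair ratios have 95% Clopper-Pearson intervals (scipy 1.17.1) and no test, with 1 library per source and arm. Tested on simulated data (the shared comparison, 15761 genes), the fit recovered 80% of genes changed by 0.5 and 98% by 1 on the log2 scale. Of its calls, 3.08% were false. The simulation was simpler than the data: all genes had the same dispersion, few were changed, and the sources did not differ. No change below 0.5 was simulated. The 8 genes other than Hmox1 and Sqstm1 changed by 0.37 or less, so recovery at their sizes was not checked.

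Members and lists were chosen with earlier results of these data known. All 10 members are given; of each role in the wider list, the largest called rise and fall were named, plus the runner-up where it differed at least 1.41-fold. Wider genes named beyond that (Nfe2l1, Cul3, Bach1, Txnrd3, Txn1, Prdx2, Prdx3, Prdx4, Prdx5, Txnip, Hmox2, Blvra, Blvrb, Cat, Gss, Mgst1, Mgst2, Gstm2, Gstp1, Gstt1, Gsto1, Prdx1) were chosen after their values were seen. For likeness, the 3 nearest genes of Hmox1, Nqo1 and Nfe2l2 with a mean of at least 5 CPM are given on log2(CPM + 0.5). Alternatives used DESeq2 1.42.0, limma 3.58.1 on log2(TPM + 1) and log2(TPM + 0.1), other scalings, filters and left-out pairs.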

Additional observations from a re-analysis of the deposited data

Results flagged for a closer look

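In 3 genes of the wider list, none of them called in the shared test, the ratio of labelled deleted to labelled vehicle moved in opposite directions in different labelled pairs, beyond counting intervals. Gpx4, the peroxidase that protects membrane lipids, was at 1.09 in the fibroblast pair and 0.926 in the sarcoma pair. Prdx1, an abundant cytosolic peroxiredoxin, was at 1.05 in the fibroblast pair and 0.952 in the sarcoma pair. Ftl1, the ferritin light chain, was at 1.03 in the lymphoma pair and 0.952 in the sarcoma pair. The difference between pairs was not tested, since each pair holds 1 library per label and the intervals cover counting error only. None of the 10 NRF2 genes showed such a reversal.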

How the results depend on the processing

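Of 110 alternative values of the 10 genes' log2 fold changes, 101 kept direction and call and 9 kept direction but lost the call: Keap1 in 5 (adjusted p up to 0.189), Txnrd1 in 2 and Nqo1 in 2. None of the 10 reversed. Hmox1 stayed between 1.12 and 1.21, Sqstm1 between 0.55 and 0.65 and Keap1 between 0.10 and 0.20. Without the replicate block, 10 of the 10 genes rose and 0 fell, and 20 of the wider list rose and 29 fell, where 3742 of all 15933 genes rose and 3772 fell. Leaving out each labelled pair in turn gave 9 to 10 of the 10 genes risen and 0 fallen, and 17 to 21 of the wider list risen and 24 to 32 fallen. Over all 15981 to 16019 genes tested there, 3256 to 3540 rose and 3185 to 3949 fell. A limit of 1.5-fold, added after seeing the data, left 2 of the 10 risen, against 8.40% of all genes. With limma on log2(TPM + 1) and log2(TPM + 0.1), 11 and 12 of the wider list rose and 10 and 10 fell, against 21 and 32. Of all 15933 genes, 2352 and 2401 rose and 1552 and 1589 fell in these settings. The cause was not tested. For 40 of the other genes named in the text, 380 of 440 alternative values kept direction and call, 52 lost a call and 2 gained one, both of Mdm2. The remaining 6 reversed: Idh1 was at 0.13 with both TPM scales, the cause not tested, and Trp53 and Prdx1, which were not called, ran from -0.0176 to 0.164 and from -0.0764 to 0.0184 when each pair was left out, with Prdx1 at 0.00697 on protein-coding genes only. Over all genes, DESeq2 called 2541 higher and 2488 lower, where edgeR called 3981 and 3920. The share of higher calls was 42.8% with upper quartile scaling and 60.2% with limma on log2(TPM + 1). TPM moved the median of all genes in the lymphoma pair by 0.14 on the log2 scale, and there 8 of the 10 TPM ratios, all higher, lay above the counting interval of the CPM ratio (Hmox1 2.40, Nfe2l2 1.39). Depth limits Nfe2l3 and Sod3 among the named genes, and Gpx3, Aldh3a1, Cyp2a5 and Slc40a1 were too low to test.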
